A study of Mus musculus with 8 samples.

Results

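The transcripts examined were those of 10 genes of nicotinamide clearance and NAD salvage, out of the 33212 genes in a liver RNA-seq count table. Nnmt, Aox1, Aox3, Nampt, Naprt, Nmnat1, Nmnat3, Nadsyn1, Nmrk1 and Sirt1 were taken by name. The table lists 9 of them under these symbols, and Naprt stands under its older symbol Naprt1 and was matched by its Ensembl identifier. All 10 had enough counts to be tested. The samples were livers of 4 Nnmt KO mice and 4 control mice, all male, of the C57BL/6 strain and kept for 8 weeks on a diet without methionine and choline (MCD diet). The KO mice were Alb-Cre::Nnmt flox/flox and the control mice, which the sample labels call WT, were Nnmt flox/flox. Alb-Cre acts in hepatocytes, so that other cells of the liver keep the gene, and the deposited counts sum over the whole gene and not over the floxed exons, which are not given in the sources used here. Letters a to d name the 4 libraries of a genotype, because the columns of the table carry no mouse number.

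NAD is a cofactor that sirtuins and poly(ADP-ribose) polymerases consume and split to nicotinamide. Nicotinamide has a pair of main fates in the liver. NNMT methylates it with S-adenosylmethionine to N1-methylnicotinamide, which the aldehyde oxidases AOX1 and AOX3 oxidize to pyridones for excretion. Alternatively, NAMPT returns it to nicotinamide mononucleotide (NMN), the rate-limiting step of salvage, and the enzymes NMNAT1 in the nucleus and NMNAT3 in mitochondria join it to adenylate to form NAD. NMRK1 makes NMN from nicotinamide riboside, while NAPRT and NADSYN1 form the first and last steps of the route from nicotinic acid. SIRT1 is an NAD-dependent deacetylase.

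The total of the deposited counts ran from 75020072 to 87934362 per library, and edgeR's TMM scaling factors from 0.876 to 1.21. Levels are CPM, counts scaled to a fixed library total, after TMM scaling. The markers of hepatocytes summed to between 65424 and 114950 CPM in KO and between 76726 and 115305 CPM in control libraries, so that the defining markers of liver were present. Among markers of other cells, only the sum of 8 lymphocyte genes separated the genotypes, at 5.54 to 6.73 CPM in KO and 3.28 to 4.17 CPM in control libraries (two-sided exact permutation test, p = 0.0286, not adjusted over the 8 lists). The stellate cell and fibroblast sum was 501 to 976 CPM in KO and 386 to 601 CPM in control libraries (exact permutation p = 0.286), with KO library a highest. Taken singly, 3 of 10 stellate cell and fibroblast genes and 2 of 8 lymphocyte genes were higher in KO libraries at an unadjusted p of 0.05 (edgeR). That share was 5.45% of all tested genes. In both lists 0 genes were lower at that level and 0 passed at an adjusted p of 0.05. KO library a also had the lowest hepatocyte sum and the TMM factor of 1.21. The part of these cells in the values below was not tested, and in bulk liver fewer cells of a type and less RNA per cell cannot be told apart.

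Nnmt (ENSMUSG00000032271) occupies chromosome 9 from 48591877 to 48605153 of GRCm38 on the minus strand, by GENCODE's annotation. The study's RT-qPCR primers for it are shown because they mark 2 points of the transcript that a count over the whole gene includes. Both match the coding sequence, the forward primer in exon 2 of 3 (chr9:48603397-48603417) and the reverse primer in exon 3 (chr9:48592182-48592201), and they bound 245 bases of a transcript of 1043 bases.
Nnmt forward: aggaaccaggagcctttgact
Nnmt reverse: cctgagggcagtgcgatagg

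In the same annotation, Aox1 (ENSMUSG00000063558) runs from 58029931 to 58106413 and Aox3 (ENSMUSG00000064294) from 58113130 to 58200698 of chromosome 1. Nampt (ENSMUSG00000020572) runs from 32819545 to 32853349 of chromosome 12, and Naprt (ENSMUSG00000022574) from 75890956 to 75894481 of chromosome 15. Nmnat1 (ENSMUSG00000028992) lies on chromosome 4 from 149467572 to 149485202, and Nmnat3 (ENSMUSG00000032456) shares chromosome 9 with Nnmt, from 98287435 to 98420438. Nmrk1 (ENSMUSG00000037847) is found on chromosome 19 from 18631950 to 18652428, and Sirt1 (ENSMUSG00000020063) on chromosome 10 from 63319005 to 63381704.

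Nnmt was the member that differed most between the genotypes. KO libraries a to d had 31.8, 44.8, 68.9 and 83.0 CPM, and control libraries a to d had 112, 224, 134 and 84.9 CPM. Every KO library was below every control library, but KO library d and control library d nearly met. On average, KO libraries held 41.2% of the control level, with a coefficient of variation of 40.4% among KO and 43.5% among control libraries, the widest spread of any member. The log2 fold change was -1.28 (standard error 0.33, 95% interval -2.01 to -0.55). In edgeR's quasi-likelihood test its unadjusted p was 0.00256, and its adjusted p was 0.123 over 15291 genes. A larger absolute change was seen in 1.69% of all tested genes. Leaving out 1 library at a time moved the log2 fold change between -1.52 and -0.94, and DESeq2's Wald test gave it an adjusted p of 0.00467.

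At an adjusted p of 0.05, 0 of the 10 members were called by edgeR, where the share of all tested genes was 0.32%, and 1 of 10 (Nnmt) by DESeq2, where it was 3.32%. At an unadjusted p of 0.05, Nnmt and Nmnat1 passed, 2 of 10 against 12.6% of all tested genes. Nnmt alone had libraries that did not overlap between the genotypes, where 8.16% of all tested genes did. Nnmt is the deleted gene, so that these counts include a difference set by the design. Without it, only Nmnat1 of the 9 other members passed at the unadjusted level, and DESeq2 called none of them. Of the 9 other members, 5 had a log2 fold change above 0 and 4 below it, with a median absolute change of 0.23 beside 0.19 for all tested genes. All p-values here measure the spread between these 8 libraries.

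**Figure D1:**
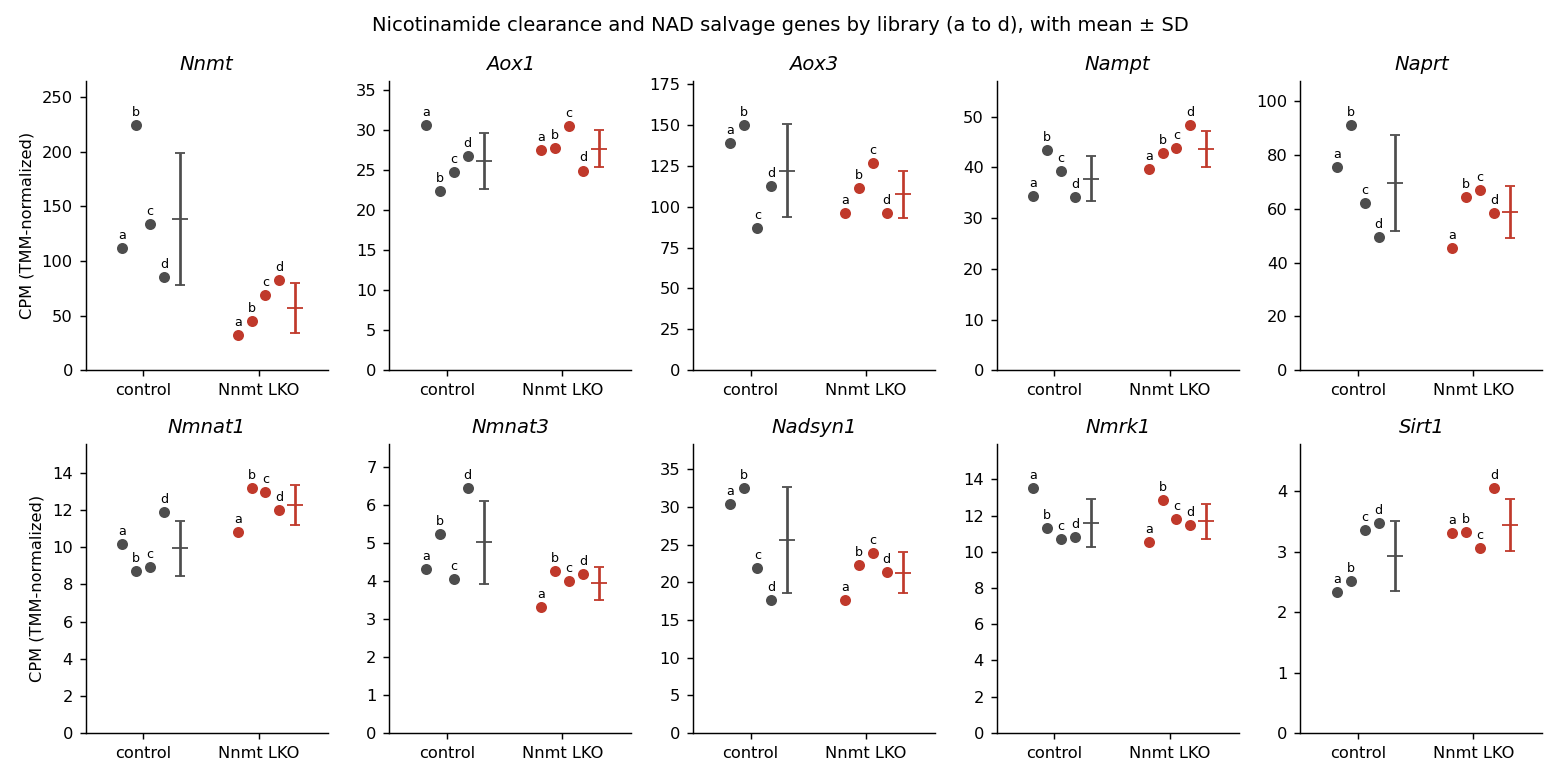
Level of each of the 10 genes in every library, in TMM-normalized CPM on axes that start at 0, with control libraries in grey and Nnmt KO (Nnmt LKO) libraries in red, each point lettered a to d and the mean ± SD beside them (n = 4). Nnmt is the only gene whose 2 groups of points do not overlap, with 83.0 CPM in KO library d and 84.9 CPM in control library d.

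The aldehyde oxidases, which act on the product of NNMT, did not pass the test. Aox1 had 27.6, 27.7, 30.5 and 25 CPM in KO libraries a to d and 30.6, 22.3, 24.7 and 26.8 CPM in control libraries a to d. The groups covered the same range, with the highest and the lowest value both in control libraries. Its log2 fold change was 0.08 (standard error 0.12), and the 95% interval of -0.18 to 0.35 bounds a change between 0.885-fold and 1.27-fold (adjusted p = 0.808, edgeR).

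Aox3 had 96.3, 111, 126 and 96.3 CPM in KO libraries a to d and 139, 150, 86.9 and 113 CPM in control libraries a to d. Control libraries a and b were above all KO libraries and control library c was below them all, so that the genotypes overlapped. In Aox3 the log2 fold change was -0.18 (standard error 0.17, 95% interval -0.56 to 0.19, adjusted p = 0.696, edgeR). Per kb of exon, Aox3 was the higher of the pair in every library, at 4.79 ± 0.35 times the level of Aox1 in KO and 5.86 ± 1.71 times in control libraries (SD, n = 4). This ratio did not differ between the genotypes beyond its spread (two-sided exact permutation test, p = 0.229). The 2 genes lie 6716 bases apart on chromosome 1, and their coding sequences were 69.8% identical over 3918 aligned bases. Their longest shared run was 20 bases, shorter than the reads of 150 bases.

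At the entry to salvage, the mean of Nampt was higher and that of Naprt lower in KO libraries, both within the spread. Nampt had 39.7, 42.9, 43.8 and 48.3 CPM in KO libraries a to d and 34.4, 43.3, 39.3 and 34.2 CPM in control libraries a to d. All 4 KO libraries were above the control median, but control library b exceeded KO libraries a and b. For Nampt the log2 fold change was 0.21 (standard error 0.11, unadjusted p = 0.0867, adjusted p = 0.465, edgeR), and its 95% interval ran from 0.976-fold to 1.37-fold. With scaling by library size alone, the Nampt levels of the genotypes no longer overlapped, and without control library b the log2 fold change was 0.29 (unadjusted p = 0.026, edgeR).

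Naprt, which converts nicotinic acid to its mononucleotide, had 45.6, 64.5, 67.1 and 58.5 CPM in KO libraries a to d and 75.6, 91.2, 62.3 and 49.6 CPM in control libraries a to d. Control libraries a and b were above every KO library, while control libraries c and d lay within the KO range. For Naprt the log2 fold change was -0.24 (standard error 0.18, 95% interval -0.65 to 0.16, adjusted p = 0.63, edgeR), and it was -0.14 without KO library a, -0.07 without control library b and -0.37 without control library d (unadjusted p = 0.0486, edgeR). Its exons share 277 bases, 11.8% of their length, with those of Eef1d on the same strand, which had 7019 to 9564 counts, so that its level is uncertain to the extent that reads there were divided between the genes. The log2 fold change of Eef1d was -0.17 (standard error 0.11).

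Nmrk1, the nicotinamide riboside kinase, was the member nearest to no difference. It had 10.6, 12.8, 11.8 and 11.5 CPM in KO libraries a to d and 13.5, 11.3, 10.7 and 10.8 CPM in control libraries a to d. The ranges overlapped almost wholly, and the log2 fold change was 0.01 (standard error 0.12). The 95% interval of -0.26 to 0.28 ran from 0.833-fold to 1.22-fold (adjusted p = 0.98, edgeR). The sign of a value so near to 0 turned without KO library b, control library c or control library d.

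The pair of enzymes that turn NMN into NAD differed in the direction of their means. Nmnat1, the nuclear enzyme, had 10.8, 13.2, 13 and 12 CPM in KO libraries a to d and 10.2, 8.73, 8.92 and 11.9 CPM in control libraries a to d. KO libraries b, c and d were above every control library, and KO library a was above all but control library d. For Nmnat1 the log2 fold change was 0.30 (standard error 0.14, unadjusted p = 0.0483, adjusted p = 0.391, edgeR), and the exact permutation test of the means gave p = 0.0571. Leaving out 1 library at a time gave log2 fold changes between 0.25 and 0.40 and unadjusted p-values between 0.0128 and 0.119, under 0.05 only without KO library a or control library d. With scaling by library size alone, Nmnat1 did not pass (unadjusted p = 0.0719, edgeR) and Nampt did (unadjusted p = 0.0376, edgeR).

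Nmnat3, the mitochondrial enzyme, had 3.31, 4.25, 3.99 and 4.18 CPM in KO libraries a to d and 4.32, 5.23, 4.04 and 6.45 CPM in control libraries a to d. KO libraries a and c were below every control library, and all 4 KO libraries were below the control median. The log2 fold change was -0.35 (standard error 0.19, unadjusted p = 0.087, adjusted p = 0.466, edgeR). Its 95% interval reached from -0.76 to 0.06. The value was -0.44 without control library c (unadjusted p = 0.0446, edgeR) and -0.20 without control library d (unadjusted p = 0.28, edgeR). The coding sequences of Nmnat1 and Nmnat3 were 64.7% identical, with 11 bases as the longest shared run.

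Nadsyn1, the glutamine-dependent NAD synthetase, had 17.6, 22.3, 23.9 and 21.3 CPM in KO libraries a to d and 30.4, 32.6, 22 and 17.6 CPM in control libraries a to d. As for Naprt, control libraries a and b were highest and the other control libraries were within the KO range. The log2 fold change was -0.27 (standard error 0.19, 95% interval -0.68 to 0.14, adjusted p = 0.589, edgeR). It was -0.16 without control library a, -0.12 without control library b and -0.41 without control library d (unadjusted p = 0.0273, edgeR). Nadsyn1 (ENSMUSG00000031090) lies on chromosome 7 between 143795584 and 143822849, and the 241 other tested genes between 125 and 150 Mb of that chromosome had a median log2 fold change of -0.30, beside 0.02 for all tested genes. Of these neighbours, 54.4% had a lower fold change than Nadsyn1. For the 9 other members, the median of the neighbours in stretches of the same length lay between -0.07 and 0.11. Neighbours were examined because an earlier look at these data had found genes of part of chromosome 7 lower in KO libraries.

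Sirt1, which uses NAD, had 3.30, 3.33, 3.06 and 4.06 CPM in KO libraries a to d and 2.34, 2.52, 3.35 and 3.48 CPM in control libraries a to d. KO library d was highest and control libraries a and b were lowest, with the others between. The log2 fold change was 0.23 (standard error 0.20, 95% interval -0.20 to 0.66, adjusted p = 0.665, edgeR).

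**Figure D2:**
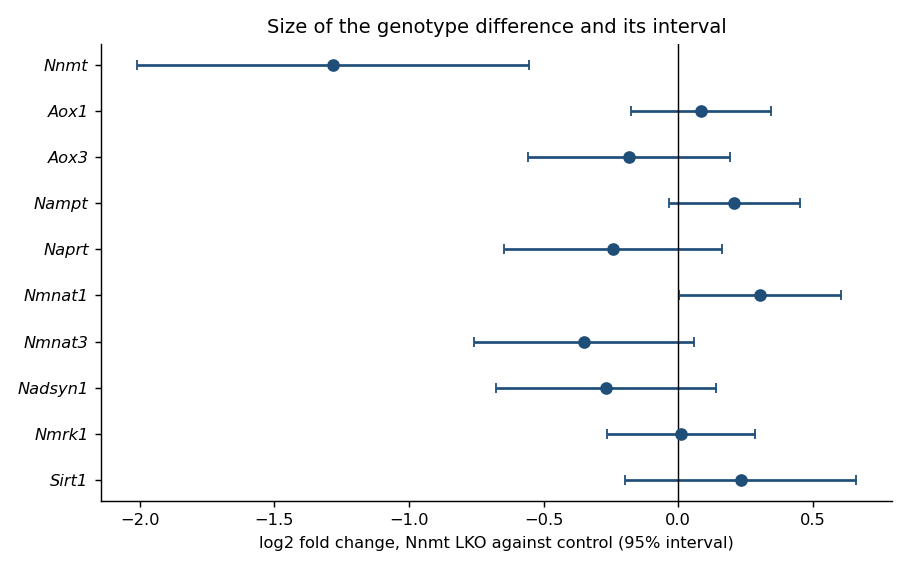
Log2 fold change of each gene in Nnmt KO against control mice (point) with its 95% interval (bar) from edgeR's quasi-likelihood test, where 0 marks no difference. The interval of Nnmt, from -2.01 to -0.55, lies apart from 0, that of Nmnat1 ends just above it, and the intervals of the 8 other genes cross it.

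Among the members, transcript levels spanned a wide range. Divided by the length of each gene's exons, the mean over the 8 libraries was 62.2 CPM per kb for Nnmt, 27.4 for Naprt, 16.3 for Aox3, 8.06 for Nampt and 7.10 for Nadsyn1. It was 3.66 CPM per kb for Nmnat1, 3.15 for Nmrk1, 3.10 for Aox1, 0.894 for Nmnat3 and 0.597 for Sirt1. The exon length took in every annotated transcript of a gene, here and in the ratio of Aox3 to Aox1. These values therefore depend on the annotation and not only on the transcripts that the liver makes. Nnmt was above Naprt in all 8 libraries even after deletion, though by only 1.03 times in the KO library where the 2 were closest. Neighbours in this order that were not separated in every library were Nampt and Nadsyn1 (6 of 8 in this order), Nmnat1 and Nmrk1 (6 of 8), and Nmrk1 and Aox1 (5 of 8). In all 4 KO libraries Nampt was above Nadsyn1 and Nmnat1 above Nmrk1, whereas control libraries were split at 2 of 4 for each pair.

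The promoter stretches of RefSeq (GRCm38.p6, 300 bases around the start) were at hand for 8 of the 10 members. Sirt1 held 47 CG dinucleotides there, Nampt 36, Nmnat1 28, Nadsyn1 27 and Nmrk1 23, beside a median of 7 over 27025 promoters. Nmnat3 held 13, Aox3 10 and Aox1 7, near that median. The stretches of Sirt1 (63338986 to 63339285), Nmnat3 (98296320 to 98296619) and Nampt (32820085 to 32820384) lie inside the GENCODE bounds given above. For these genes the RefSeq start is therefore not the outer end of the annotated gene.

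Since Nnmt differed 7.05-fold between the highest and the lowest library, each library was also placed by its Nnmt level. Over the 8 libraries, 0 of 15290 genes followed the Nnmt level at an adjusted p of 0.05 and 14.4% did so at the unadjusted level when edgeR's fit took no account of genotype. The slope, in log2 units for each doubling of Nnmt, was 0.26 (standard error 0.09) for Naprt and 0.26 (standard error 0.09) for Nadsyn1, with unadjusted p-values of 0.0117 and 0.0172 and adjusted p-values of 0.254 and 0.276. These 2 genes of the nicotinic acid route were the only ones of the 9 that passed at the unadjusted level. For both, the unadjusted p was over 0.05 without KO library a (0.0798 for Naprt and 0.0751 for Nadsyn1) or control library b (0.193 and 0.198). With scaling by library size alone, neither Naprt (unadjusted p of 0.0718 in edgeR's fit) nor Nadsyn1 (0.126) passed, while Nmnat1 (slope -0.32, unadjusted p of 0.00748) and Aox1 (slope -0.21, unadjusted p of 0.0431) did. Nnmt level and genotype are confounded in these values.

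Within genotype, with genotype as a term of the fit, 15% of all genes followed the Nnmt level at an unadjusted p of 0.05 and 0.00654% at an adjusted p of 0.05. None of the 9 members passed at the adjusted level, and 3 passed at the unadjusted level. The slope was 0.40 for Naprt (95% interval 0.10 to 0.70, unadjusted p = 0.0131, adjusted p = 0.212, edgeR), 0.35 for Nadsyn1 (0.03 to 0.68, unadjusted p = 0.036, adjusted p = 0.297, edgeR) and 0.22 for Nampt (0.03 to 0.41, unadjusted p = 0.0281, adjusted p = 0.274, edgeR). Without KO library a, control library b or control library d, 0 of the 9 passed at the unadjusted level. With scaling by library size alone, none of these 3 passed, with slopes of 0.21 for Naprt (unadjusted p = 0.177, edgeR), 0.15 for Nadsyn1 (unadjusted p = 0.387, edgeR) and 0.05 for Nampt (unadjusted p = 0.697, edgeR). Aox1 (slope -0.41, unadjusted p = 0.0139, edgeR) and Nmnat1 (slope -0.37, unadjusted p = 0.0431, edgeR) passed in their place, so that the genes that followed the Nnmt level depended on the scaling.

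The slope of Nampt within genotype was above 0 although its mean was higher in KO libraries, where Nnmt was lower. Over all 8 libraries the slope of Nampt was -0.01 (standard error 0.08). Nmnat1 went the other way to Naprt and Nadsyn1, with a slope of -0.19 (standard error 0.09, unadjusted p = 0.0538, edgeR) over the 8 libraries and -0.10 (standard error 0.13) within genotype. Aox1, Aox3, Nmnat3, Nmrk1 and Sirt1 had slopes within genotype between -0.13 and 0.16, each with a 95% interval that crossed 0 under TMM scaling.

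Correlations of log2 CPM with Nnmt were computed over the 8 libraries for the 9 other members. For Naprt, Pearson's r was 0.73 (exact permutation p = 0.0374, adjusted over the 9 members p = 0.164) and Spearman's rho 0.55 (exact permutation p = 0.171). Without KO library a and control library b, the farthest from the median Nnmt level, r fell to 0.07, so that the relation rested on those libraries. With scaling by library size alone, r was 0.64 for Naprt (exact permutation p = 0.0902). Nadsyn1 had r = 0.69 (exact permutation p = 0.0542, adjusted p = 0.164), rho = 0.55 (exact permutation p = 0.171) and r = 0.20 without the same 2 libraries.

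Nmnat1 had r = -0.70 (exact permutation p = 0.0547, adjusted p = 0.164) and rho = -0.76 (exact permutation p = 0.0368, adjusted p = 0.331). Without KO library a and control library b, r was -0.91. With scaling by library size alone, r was -0.90 for Nmnat1 (exact permutation p = 0.000521) and -0.73 for Aox1 (exact permutation p = 0.0382). With TMM scaling the other 6 members had r between -0.54 and 0.52, with exact permutation p-values of 0.165 or more. None of the 9 members passed after adjustment by either measure with TMM scaling and all 8 libraries. Before adjustment, 1 of 9 passed by Pearson's r (Naprt) and 1 of 9 by Spearman's rho (Nmnat1). By Pearson's r, Nmnat1 did pass adjustment with scaling by library size alone. It also did so without KO library a (r = -0.93, exact permutation p = 0.000198). The correlations of all 9 members took no account of genotype, so that Nnmt level and genotype are confounded in them.

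The lymphocyte and the stellate cell sums were related to the Nnmt level before adjustment by Pearson's r, and no marker sum passed after it. The lymphocyte sum had r = -0.84 with Nnmt in log2 units (exact permutation p = 0.00662, adjusted over the 8 marker lists p = 0.053), rho = -0.88 (exact permutation p = 0.00724, adjusted p = 0.0579) and r = -0.92 without KO library a and control library b. The stellate cell and fibroblast sum had r = -0.74 (exact permutation p = 0.037, adjusted p = 0.148), rho = -0.43 (exact permutation p = 0.299) and r = -0.16 without those 2 libraries, so that its relation rested on them. The 6 other sums had r between -0.57 and 0.58, with exact permutation p-values of 0.131 or more. The lymphocyte sum was low, at 3.28 to 6.73 CPM, and separated the genotypes, so that its relation to Nnmt is confounded with genotype. The part of other cells in the members' slopes was not tested.

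**Figure D3:**
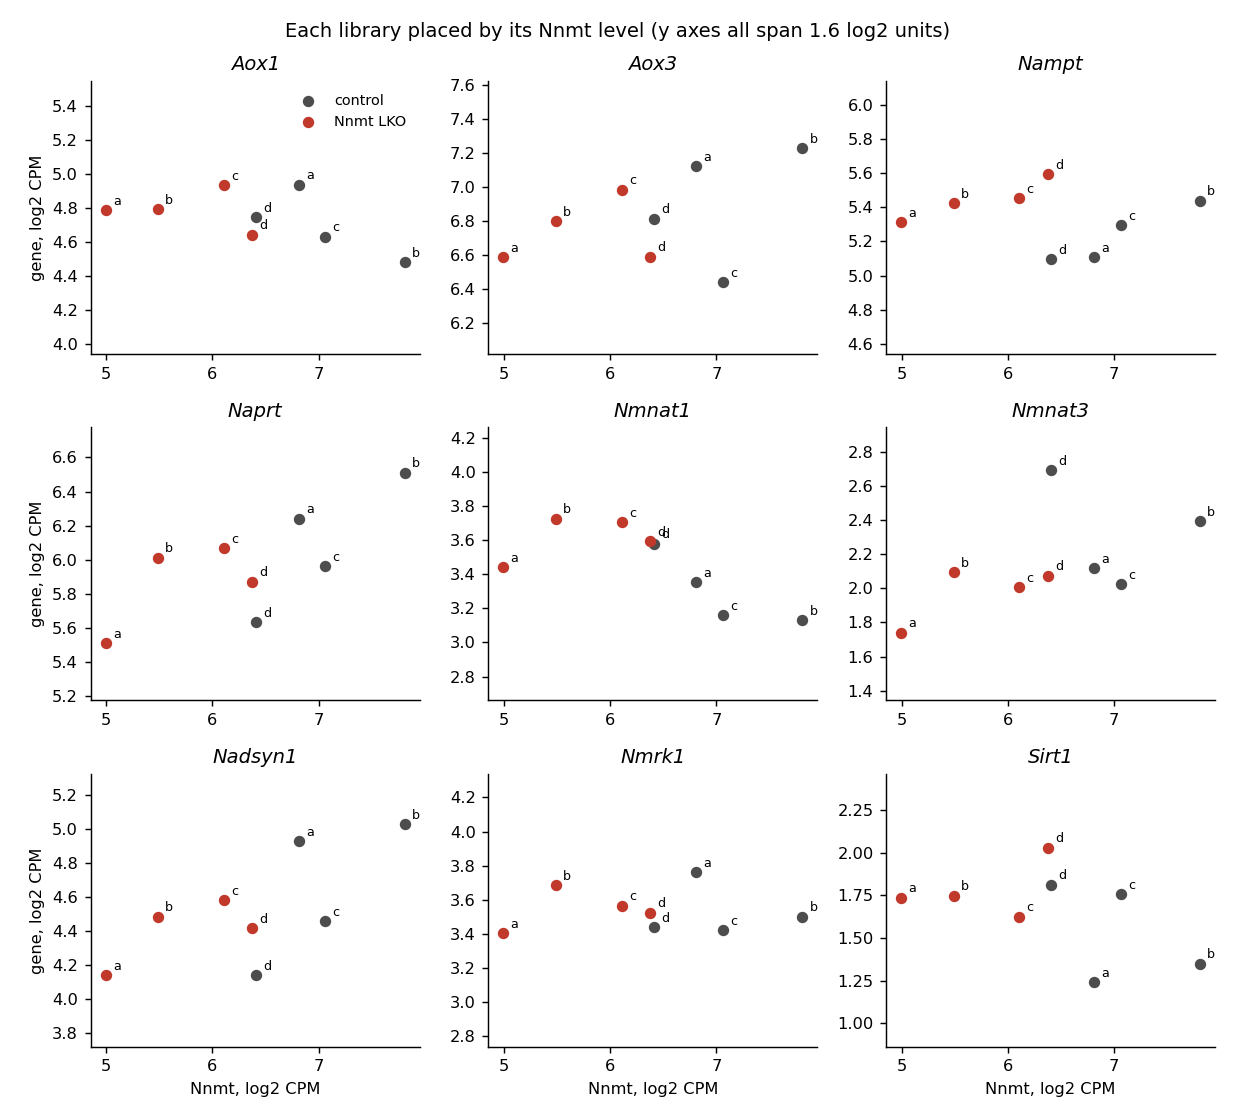
Level of each of the 9 other genes against the Nnmt level of the same library, both in log2 CPM, with control libraries in grey and Nnmt KO libraries in red, lettered a to d, and with y axes that span the same number of log2 units. The points of Naprt slope up (r = 0.73), those of Nmnat1 slope down (r = -0.70), and those of Nmrk1 do neither (r = 0.01).

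As a description, the genes with levels most like that of Nnmt over the 8 libraries, among 9180 searched with a mean of at least 5 CPM, were Pla2g12b (r = 0.99), Det1 (r = 0.96) and Sdc4 (r = 0.96). Genes with symbols of the Gm or Rik kind were left out of this search. Pla2g12b had 46.1 to 52.3 CPM in KO and 54.6 to 67.4 CPM in control libraries. No member of the pathway was among these 3.

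A further 66 genes of NAD metabolism were listed, of which 61 had enough counts. Aox4, Nmrk2, Ido1, Slc22a2 and Slc47a2 did not, and Nmrk2 had 0 counts in every library. Of the 61, 34 had a log2 fold change above 0 and 27 below, with a median of 0.01. In edgeR's test 0 passed at an adjusted p of 0.05 (0.32% of all tested genes), while 7 with higher levels (5.45% of all tested genes) and 7 with lower levels (7.13% of all tested genes), 23.0% in all, passed at an unadjusted p of 0.05. DESeq2 called Qprt, Parp16 and Slc22a3, 3 of 61, at an adjusted p of 0.05 (3.32% of all tested genes). The libraries of 6 of the 61, or 9.84%, did not overlap between the genotypes, where 8.16% of all tested genes did.

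The largest share of unadjusted calls was in the list of transport of NAD precursors and N1-methylnicotinamide, with a median log2 fold change of 0.52. There, 3 of 9 tested genes were higher and 1 lower in KO libraries, 44.4% beside 12.6% of all tested genes. This is the largest share among lists of few genes. The list's highest log2 fold changes were 1.67 for Slc5a8 and 1.02 for Slc22a13. Neither passed, and they had at most 21 and 26 counts in a library. Slc22a3, an organic cation transporter, had 13.9, 7.98, 16.6 and 19.1 CPM in KO libraries a to d and 7.22, 6.63, 8.15 and 10.1 CPM in control libraries a to d. KO library b was as low as the control libraries and the other KO libraries were above them all, and the log2 fold change was 0.84 (standard error 0.24, unadjusted p = 0.00501, adjusted p = 0.169, edgeR). Gja1, the gap junction protein connexin 43, had 8.44 to 13.4 CPM in KO and 6.48 to 7.99 CPM in control libraries (log2 fold change 0.50, unadjusted p = 0.00898, edgeR). The highest Gja1 level was that of KO library a, which also had the highest stellate cell and fibroblast sum. Gja1 had a log2 fold change of 0.36 without that library (unadjusted p = 0.027, edgeR), and the part of stellate cells in its level was not tested. Slc25a51, the mitochondrial NAD carrier, had 72.9 to 116 CPM in KO and 57.8 to 89.96 CPM in control libraries (log2 fold change 0.52, unadjusted p = 0.0142, edgeR). The 1 lower gene, Slc22a7, an organic anion transporter named here after its values were seen, had 4.01 to 12 CPM in KO and 11.0 to 16.6 CPM in control libraries (log2 fold change -0.81, unadjusted p = 0.0172, edgeR).

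In the route from tryptophan, 1 of 8 tested genes was higher and 1 lower at an unadjusted p of 0.05, with a median log2 fold change of -0.06. These calls were 25% of the list, beside 12.6% of all tested genes. Tdo2, which opens tryptophan for this route, had 589, 935, 784 and 1337 CPM in KO libraries a to d and 480, 646, 709 and 516 CPM in control libraries a to d. KO library a lay within the control range and the 3 others were above it, and the log2 fold change was 0.63 (standard error 0.23, unadjusted p = 0.0201, adjusted p = 0.288, edgeR). It was 0.39 without KO library d (unadjusted p = 0.0788, edgeR), and Tdo2 also did not pass without control library a (0.0509) or control library d (0.0537). Qprt, which turns quinolinate into nicotinic acid mononucleotide, had 99.5, 155, 153 and 141 CPM in KO libraries a to d and 212, 249, 171 and 186 CPM in control libraries a to d. Every KO library was below every control library, and the log2 fold change was -0.58 (standard error 0.17, unadjusted p = 0.0051, adjusted p = 0.169, edgeR). Qprt lies in the same 25 Mb stretch of chromosome 7 as Nadsyn1, where the median of the other 241 tested genes was -0.30, and 12.4% of these genes had a lower fold change than Qprt.

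Among PARPs and glycohydrolases, which consume NAD, 2 of 17 tested genes were higher and 2 lower at an unadjusted p of 0.05, with a median log2 fold change of 0.02. These calls were 23.5% of the list, beside 12.6% of all tested genes. Parp16, an ADP-ribosyltransferase of the endoplasmic reticulum, had 24.2, 32.6, 26.5 and 27.9 CPM in KO libraries a to d and 20.2, 17.2, 17.7 and 20.3 CPM in control libraries a to d. All KO libraries were above all control libraries. Its log2 fold change of 0.56 (standard error 0.12, unadjusted p = 0.000598, adjusted p = 0.0731, edgeR) had the smallest p of the 61 genes, and without KO library a the adjusted p was 0.0421. Parp3 had 29.3 to 34.1 CPM in KO and 34.6 to 48.7 CPM in control libraries (log2 fold change -0.39, unadjusted p = 0.00604, edgeR), and Parp10 had 21.7 to 33.5 CPM in KO and 31.5 to 42.4 CPM in control libraries (-0.49, unadjusted p = 0.00635, edgeR). The other higher gene was the glycohydrolase Cd38, named here after its values were seen. It had 21.9 to 24.5 CPM in KO and 13.3 to 21.5 CPM in control libraries (log2 fold change 0.44, unadjusted p = 0.0139, edgeR).

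The other lists held smaller shares of unadjusted calls, 15.4%, 12.5% and 16.7% in the order below, beside 12.6% of all tested genes. Of 13 tested genes of other precursor, phosphorylation and repair enzymes, 1 was higher and 1 lower at an unadjusted p of 0.05, with a median of 0.07. Nt5e, the ectonucleotidase CD73, had 23.4 to 34.6 CPM in KO and 16.5 to 24.6 CPM in control libraries (log2 fold change 0.47, unadjusted p = 0.0119, edgeR). Cyp2e1, a cytochrome P450 that can act on nicotinamide, had 4695 to 9654 CPM in KO and 9299 to 17202 CPM in control libraries (log2 fold change -0.67, unadjusted p = 0.0297, edgeR), and it too lies in that stretch of chromosome 7. Of 8 tested genes of the molybdenum enzymes and the cofactor that aldehyde oxidases need, Mocs3 alone passed, at 3.49 to 4.70 CPM in KO and 4.71 to 5.76 CPM in control libraries (-0.37, unadjusted p = 0.0397, edgeR), with a median of -0.08 for the list. Of the 6 other sirtuins, Sirt7 alone passed, at 24.0 to 30.2 CPM in KO and 29.9 to 37.3 CPM in control libraries (-0.26, unadjusted p = 0.0347, edgeR), with a median of -0.10. Under scaling by library size alone the unadjusted p was over 0.05 for Sirt7 (0.078), Mocs3 (0.115) and Parp10 (0.0613), in edgeR's test. It was also over 0.05 for Sirt7 without KO library a, b or c or control library a or b (0.0583 to 0.137), and for Mocs3 without KO library a, b or c or control library a or c (0.0784 to 0.103). For Cyp2e1 it was over 0.05 without KO library d or control library a or b (0.0602 to 0.101).

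**Figure D4:**
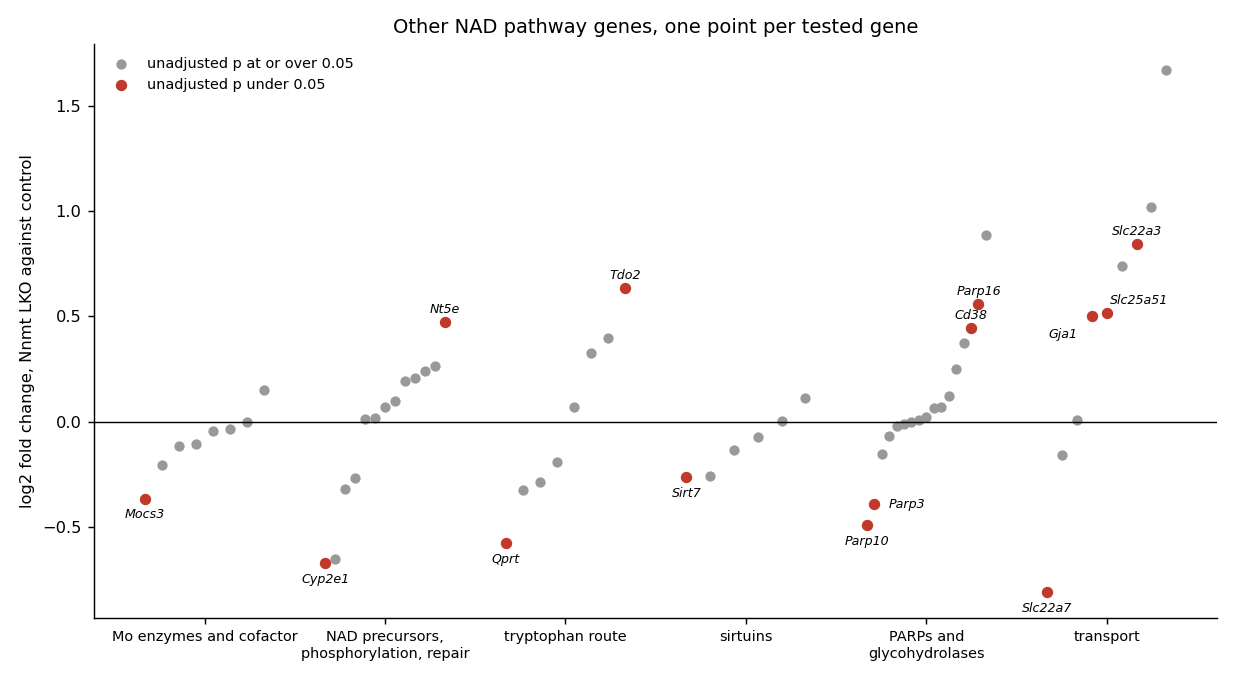
Log2 fold change in Nnmt KO against control mice of the 61 other tested genes of NAD metabolism, grouped by list on the x axis and ordered by value within it, with genes at an unadjusted p under 0.05 in red and named. The 14 named genes lie on both sides of 0, 7 above and 7 below, and the list of transport has the highest median (0.52). That median is of 9 genes, among which Slc5a8 and Slc22a13 had at most 21 and 26 counts in a library.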

How the data were processed

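Liver RNA of 4 Nnmt KO and 4 control mice was sequenced in paired-end reads of 150 bases. Alignment and quantification by the authors used HISAT2, and the submitters' processing notes also name StringTie and the build mm10. The annotation and strand setting are not given in the sources used here. The paper names a KAPA kit and the labels a NEBNext kit. The deposited estimated counts are whole numbers without normalization. In all 8 libraries more genes held 4 counts than 2, 3, 6, 7 or 8 (medians of 330 genes at 4 and 201.5 at 2), so that a count need not be 1 read.

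Counts were filtered by filterByExpr (minimum count 10), which left 15291 genes, scaled by TMM and tested with the quasi-likelihood test of edgeR 4.0.16 (R 4.3.3), with Benjamini-Hochberg adjustment over all tested genes. Standard errors are those implied by the F statistic. The Nnmt level was the log2 CPM with a prior count of 2. Permutation tests were exact and two-sided. For differences between the genotypes, with 4 mice against 4, their smallest p is 0.0286. For correlations over 8 libraries all 40320 pairings were used, so that smaller p-values were possible. On simulated counts for 15291 genes, the genotype test called 161 of 200 genes changed by 1.5 on the log2 scale and 13 unchanged genes. That change is larger than the log2 fold change of any member, Nnmt (-1.28) included. Recovery of changes as small as those of the 9 other members was not simulated.

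From each pathway list, genes with an adjusted p under 0.05 and the 3 with the smallest unadjusted p under 0.05 and a mean of at least 1 CPM were named. The members and lists were chosen with earlier results of these data known. Alternatives were DESeq2 1.42.0, its size factors, scaling by library size, fits without the filter, omission of each library, stretches of 10 Mb, and, chosen after seeing the data, counts divided by 4. Marker lists for the cells that the tissue could hold were summed per library. The sums of macrophage (p = 1), endothelial (p = 0.886), cholangiocyte (p = 0.2), adipocyte (p = 0.8), red blood cell (p = 0.429) and hepatocyte (p = 0.886) markers did not differ between the genotypes beyond their spread in the exact permutation test, and Adipoq, Plin1 and Lep had 0 counts. Single genes weigh heavily in some sums, as Gpnmb (98.1 to 585 CPM) does in that of macrophages and Fabp4 (5.46 to 11.1 CPM) in that of adipocytes. A sum therefore need not show how its other markers ran. Mitochondrial genes took 3.88% to 6.50% of the counts.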

Additional observations from a re-analysis of the deposited data

Results flagged for a closer look

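Nnmt KO library a had a TMM factor of 1.21, far from those of the 3 other KO libraries (0.952 to 0.977). Among 46 groups of 4 libraries examined for a value set apart from the rest, this was the only one, and chance would set about 2.3 apart.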

How the results depend on the processing

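No paired analysis was possible because the columns of the count table carry no mouse number, so the fit with the replicate number as a block was not run. Every alternative and every left-out library kept the log2 fold change of Nnmt below 0, between -1.52 and -0.94. DESeq2's Wald test called 1 member (Nnmt) and 3 pathway genes at an adjusted p of 0.05 where edgeR called 0 and 0. Scaling by library size alone gave 2 members whose libraries did not overlap, in place of 1, and 1 correlation that passed adjustment (Nmnat1), in place of 0. It also turned the correlation of Nmrk1 to -0.70 and its slopes to -0.11 over all libraries and -0.24 within genotype, and the slopes within genotype of Aox3 to -0.0867 and of Nmnat3 to -0.23. The slope of Nmrk1 was -0.00047 and its correlation -0.0020 with DESeq2's size factors, and the slope was -0.0038 without the filter. The slope of Aox1 within genotype was -0.41 with scaling by library size. Scaling by library size leaves out the TMM factor, which was highest (1.21) in KO library a, the library with the lowest Nnmt level. The factor was lowest (0.876) in control library b, the library with the highest Nnmt level. The cause of these turns was not tested. Leaving out 1 library at a time gave 1 to 4 members at an unadjusted p of 0.05 by genotype, 0 to 3 by Nnmt level, 0 to 3 by level within genotype, 0 to 1 correlations after adjustment and 0 to 1 pathway genes at an adjusted p of 0.05. Under it the sign turned for Nmrk1 (log2 fold change -0.0384 to 0.114, slope -0.0613 to 0.0369, slope within genotype -0.0716 to 0.0417, correlation -0.37 to 0.25), for Nampt (slope -0.0825 to 0.0051, correlation -0.34 to 0.0215), and for the slopes within genotype of Aox3 (-0.000914 to 0.28), Nmnat1 (-0.26 to 0.0091), Nmnat3 (-0.12 to 0.23) and Sirt1 (-0.19 to 0.0760). With 4 mice a genotype, a change within a member's 95% interval could not be told from 0 where that interval crossed it.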
